A study of Mus musculus with 3 samples.

Results

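The variable segments of the immunoglobulin heavy chain, the Ighv genes, were followed in RNA sequencing of mandibular condyles from WT, Dspp+/- and Dspp-/- mice. Members were the rows of the deposited table whose symbol begins with Ighv, which gave 103 of 26970 rows. All 103 lay on chromosome 12, and the annotation called 92 of them V genes and 11 V pseudogenes. The study asked how loss of 1 or both copies of Dspp, which encodes the dentin sialophosphoprotein of tooth and bone matrix, changes the condyle.

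The condyles came from 4-month-old mice on a C57BL/6 background carrying a global deletion of Dspp, with WT (+/+), heterozygous (+/-) and homozygous (-/-) animals and 1 library per genotype. Tissue of 3 animals was pooled for WT and for Dspp+/-, and the number behind Dspp-/- is not given in the sources used here. The labels speak of triplicates, but the table has a single column for every genotype, so no test between genotypes was possible and every difference below is one between single libraries. Intervals are 95% Clopper-Pearson intervals on fragments, except those of the effective number of segments, which are normal approximations on the log scale. All of them cover counting error only, not differences between animals, and amplified fragments are not independent molecules. Where 3 values follow each other, they are in the order WT, Dspp+/- and Dspp-/-.

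Each B cell builds its heavy chain gene once, by joining a single V segment to a D and a J segment with the RAG recombinase. The joined V exon is then transcribed together with a constant gene, first Ighm and, after class switching, one of the Ighg genes, Igha or Ighe. A clone and its descendants keep the same V segment. The spread of V segments in tissue reflects in part which B cells and plasma cells are present and how much immunoglobulin RNA each makes. Values per gene do not show whether the V segment behind a fragment was joined. The V segments lie in a long row upstream of the constant genes, with families such as Ighv2 and Ighv5 nearest to Ighm and the large Ighv1 family, known as J558, reaching to the far end. Bone marrow, which fills the spaces of subchondral bone, is where B cells form and where many plasma cells live.

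The segments that ranked among the 5 highest of any library are shown by their final 90 germline bases, from GENCODE M21 (GRCm38), so that a reader can see which of the leading segments resemble each other. Capitals mark the codon TGT of the conserved cysteine that ends the third framework region, just before the joining site. All 11 lie on the minus strand and are written in the direction of transcription.
Ighv5-12: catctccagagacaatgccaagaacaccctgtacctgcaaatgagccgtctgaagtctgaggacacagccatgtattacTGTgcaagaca
Ighv2-9-1: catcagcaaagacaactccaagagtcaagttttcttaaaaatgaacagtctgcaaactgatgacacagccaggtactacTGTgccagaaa
Ighv9-3: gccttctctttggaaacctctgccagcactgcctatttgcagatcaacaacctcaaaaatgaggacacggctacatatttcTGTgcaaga
Ighv3-6: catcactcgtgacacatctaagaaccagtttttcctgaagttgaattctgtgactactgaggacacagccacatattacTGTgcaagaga
Ighv1-7: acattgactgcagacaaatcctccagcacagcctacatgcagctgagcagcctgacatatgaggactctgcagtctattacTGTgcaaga
Ighv1-9: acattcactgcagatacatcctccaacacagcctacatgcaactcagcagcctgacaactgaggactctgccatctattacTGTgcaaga
Ighv1-26: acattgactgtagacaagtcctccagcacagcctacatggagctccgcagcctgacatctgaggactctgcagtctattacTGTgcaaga
Ighv1-50: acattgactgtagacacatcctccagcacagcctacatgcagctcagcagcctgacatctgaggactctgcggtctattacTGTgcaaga
Ighv1-53: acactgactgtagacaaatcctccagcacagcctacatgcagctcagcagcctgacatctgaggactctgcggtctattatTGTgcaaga
Ighv1-54: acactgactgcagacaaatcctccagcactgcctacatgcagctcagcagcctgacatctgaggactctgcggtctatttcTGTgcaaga
Ighv1-80: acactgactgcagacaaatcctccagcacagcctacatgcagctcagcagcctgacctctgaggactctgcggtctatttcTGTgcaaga

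The 7 leading Ighv1 segments were 86.7% to 97.8% identical to one another in these bases, whereas the 3 segments that led the WT library were 54.4% to 67.8% identical. Ighv1-54 and Ighv1-80 differed by 2 edits over the 90 bases (97.8% identity), although their positions were far apart. Ighv2-9-1 and Ighv9-3, which stood side by side in rank in WT, differed by 41 edits (54.4% identity). The letters TGTGCAAGA, read on the transcribed strand only, occurred in the last 25 bases of 55 of the 92 listed V genes (59.8%). They occurred in 45.4% of all 185 annotated Ighv genes and pseudogenes. These include 70 pseudogenes, so the shares are not of like sets. Over the whole transcript, the nearest other Ighv gene was a median of 94.9% identical (73.8% to 99.7%). Of the 103 segments, 30 shared at least one run of 100 bases with another gene, and 2 shared at least 50% of their runs: Ighv1-71 shared 96.9% and Ighv1-62-2 shared 90.3%, and the values of this pair are uncertain because fragments could have been assigned to either. No listed segment overlapped the exons of another gene.

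RNA from Ighv segments was more abundant in both mutant libraries than in WT. The summed level was 130 FPKM (fragments per kilobase of gene length, scaled to library size) in WT, whereas it was 266 in Dspp+/- and 217 in Dspp-/-. Behind these sums stood 949, 2312 and 1757 fragments of 20241577, 23613622 and 22253158 in the libraries. The sum was thus 2.04-fold higher in Dspp+/- than in WT (interval 1.89 to 2.21) and 1.67-fold higher in Dspp-/- (1.54 to 1.81), and it was 1.22-fold higher in Dspp+/- than in Dspp-/- (1.15 to 1.303). Both comparisons with WT use the same WT library. In bulk tissue, a smaller number of B lineage cells and less immunoglobulin RNA per cell cannot be told apart.

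The WT library used far fewer segments. A segment was called in use when at least 3 fragments lay behind its value, 3 being the limit that a count of 0 allows. By this rule 36 of the 103 segments were in use in WT, against 80 in Dspp+/- and 62 in Dspp-/-. No fragment was found for 49 segments in WT, compared with 11 in Dspp+/- and 22 in Dspp-/-. Taken as 3 fragments of the library's Ighv total, the share that a count of 0 allows was up to 0.316% in WT compared with 0.130% in Dspp+/- and 0.171% in Dspp-/-, so segments of low use were harder to see in WT. The order did not rest on depth alone: with every library thinned to the 949 Ighv fragments of WT, the expected number in use was 36, 62.8 and 55.2. The median segment had 0.131 FPKM in WT against 1.18 in Dspp+/- and 0.640 in Dspp-/-, whereas the highest segment had a similar level in all of them, at 19.9, 19.4 and 23.9 FPKM.

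Use was also more concentrated in WT. The single highest segment held 15.3% of the summed Ighv FPKM in WT (13.0 to 17.8), 7.30% in Dspp+/- (6.30 to 8.41) and 11.0% in Dspp-/- (9.53 to 12.6). The 5 highest segments of each library held 53.5% (50.2 to 56.7), 26.5% (24.7 to 28.4) and 34.7% (32.4 to 37.0), in the same order. The 10 highest held 75.4% (72.6 to 78.1), 43.5% (41.4 to 45.5) and 50.3% (48.0 to 52.7). For the 5 and the 10 highest, no interval of one library reached that of another. These segments were picked as the highest of each library, and the intervals do not allow for that choice. The shares were not recomputed at equal depth. Reaching 50% of the FPKM took 5 segments in WT, but 13 in Dspp+/- and 10 in Dspp-/-, and reaching 90% took 19, 47 and 40. The effective number of segments, which is the number of equally used segments that would give the same Shannon entropy, was 19.97 in WT (18.6 to 21.5), 50.5 in Dspp+/- (48.5 to 52.5) and 40.2 in Dspp-/- (38.3 to 42.2).

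**Figure D1:**
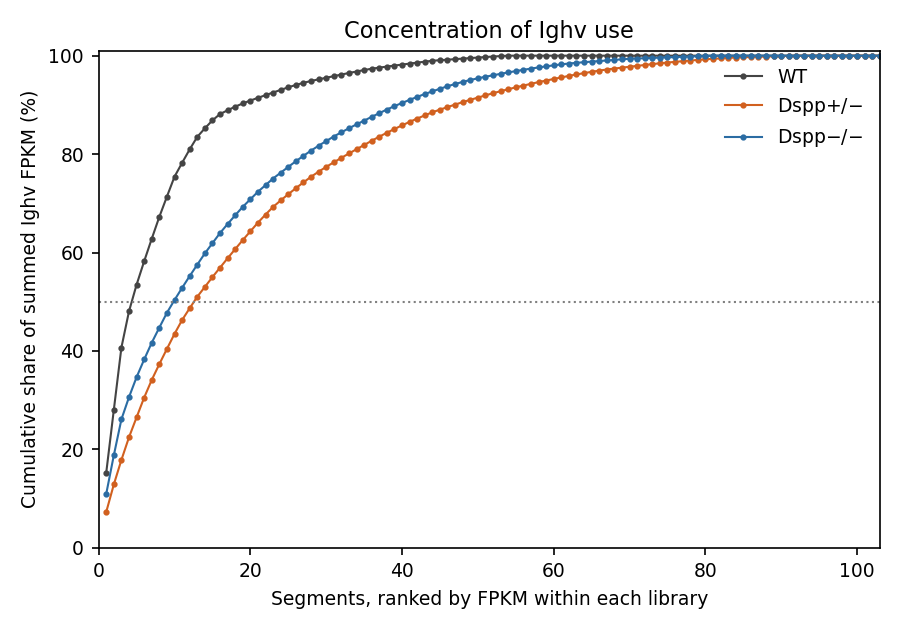
Cumulative share of the summed Ighv FPKM (%, vertical axis) against the number of segments, ranked from the highest within each library (horizontal axis), with 1 curve per library and a dotted line at 50%. The WT curve crosses the dotted line at 5 segments, Dspp-/- at 10 and Dspp+/- at 13.

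The WT library was led by Ighv3-6, Ighv2-9-1 and Ighv9-3, single members of 3 different families. Together they held 40.7% of the Ighv FPKM in WT (37.6 to 43.9), 5.68% in Dspp+/- (4.76 to 6.73) and 14.4% in Dspp-/- (12.7 to 16.1). Without these 3 segments, a choice made after seeing the data, the effective number was 23.5 in WT compared with 47.9 in Dspp+/- and 41.3 in Dspp-/-, and the summed level was 3.25-fold higher in Dspp+/- than in WT and 2.41-fold higher in Dspp-/-. WT thus kept the lowest effective number without them, and the ratio in level became larger, as leaving out segments that are high in WT makes it.

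Ighv3-6 lay 865 kb from Ighm, at chr12:114251772-114252202. It had 19.9 FPKM in WT against 8.23 in Dspp+/- and 23.9 in Dspp-/-, from 141, 68 and 186 fragments, and was the highest segment in both WT and Dspp-/-. Its level in Dspp+/- was 0.413 of WT (0.305 to 0.556), and in Dspp-/- it was 1.20 times that of WT (0.959 to 1.504). Only the Dspp+/- library was low for Ighv3-6, beyond counting error.

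Ighv2-9-1, at chr12:113733470-113733922 and 347 kb from Ighm, had 16.6 FPKM in WT compared with 1.95 in Dspp+/- and 1.70 in Dspp-/-. It was the second segment of WT, and both mutant libraries were low, at 0.118 of WT (0.0663 to 0.196) and 0.103 of WT (0.0546 to 0.179). Ighv9-3, at chr12:114104312-114104742 and 718 kb from Ighm, was also low in both, with 16.5, 4.95 and 5.63 FPKM. The shares of Ighv2-9-1, Ighv9-3 and Ighv3-6 were those that fell short of WT by the most in each mutant library. The fifth segment of WT was Ighv1-9, at chr12:114547189-114547622, with 7.04 FPKM in WT against 5.07 in Dspp+/- and 3.33 in Dspp-/-.

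The Dspp+/- library was led by a segment that was scarcely seen in WT and was far lower in Dspp-/-. Ighv1-7, at chr12:114502115-114502585 and 1116 kb from Ighm, had 0.382 FPKM in WT compared with 19.4 in Dspp+/- and 1.85 in Dspp-/-. These values came from 3, 178 and 16 fragments, and the Dspp+/- level was 50.9-fold that of WT with a wide counting interval (17.1 to 249) and 10.5-fold that of Dspp-/- (6.28 to 18.7). Ighv1-7 shared 16.6% of its 100-base runs with other genes, and its nearest relative Ighv1-4 was 96.9% identical to it.

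Ighv1-54 and Ighv5-12 had the same pattern, high in Dspp+/- and low in both other libraries. Ighv1-54, at chr12:115157295-115157754, had 0.393 FPKM in WT against 10.8 in Dspp+/- and 0.954 in Dspp-/-, from 3, 96 and 8 fragments. Ighv5-12, at chr12:113665744-113666198, had 1.68, 12.2 and 2.29 FPKM. It was the segment nearest to Ighm that was in use in every library, 279 kb away. The Dspp+/- level of Ighv5-12 was 7.29-fold that of WT (4.00 to 14.6) and 5.34-fold that of Dspp-/- (3.22 to 9.37).

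Ighv1-80 and Ighv8-12 of the distal part and Ighv1-50 of the middle part were highest in Dspp-/-. Ighv1-80, at chr12:115875964-115876396 and 2490 kb from Ighm, had 6.19 FPKM in WT compared with 9.53 in Dspp+/- and 17.0 in Dspp-/-. Its level in Dspp-/- was 2.75-fold that of WT (1.94 to 3.96), although its last 90 bases were nearly those of Ighv1-54, which was low there. Ighv8-12, at chr12:115611565-115612007, had 0.414, 2.60 and 7.41 FPKM, from 3, 22 and 59 fragments, so that WT was the lowest and Dspp-/- the highest. Ighv1-50, at chr12:115083368-115083839, had 5.95 FPKM in WT against 4.89 in Dspp+/- and 9.79 in Dspp-/-, and was thus lowest in Dspp+/-.

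Ighv1-26 and Ighv1-53 were among the 10 highest segments of every library. Ighv1-26, at chr12:114751992-114752425, was among the 5 highest in all 3 libraries, with 9.57 FPKM in WT compared with 14.8 in Dspp+/- and 8.83 in Dspp-/-. Ighv1-53, at chr12:115122023-115122455, had 5.35, 13.3 and 15.9 FPKM, and both mutant libraries were above WT, by 2.48-fold (1.70 to 3.69) and 2.97-fold (2.05 to 4.39). Ighv1-81, which was of lower rank, at chr12:115883899-115884332 and 2498 kb from Ighm, was the farthest segment in use in all libraries, with 2.11, 3.50 and 1.66 FPKM. Its fold against WT had intervals that include 1 in both mutant libraries.

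**Figure D2:**
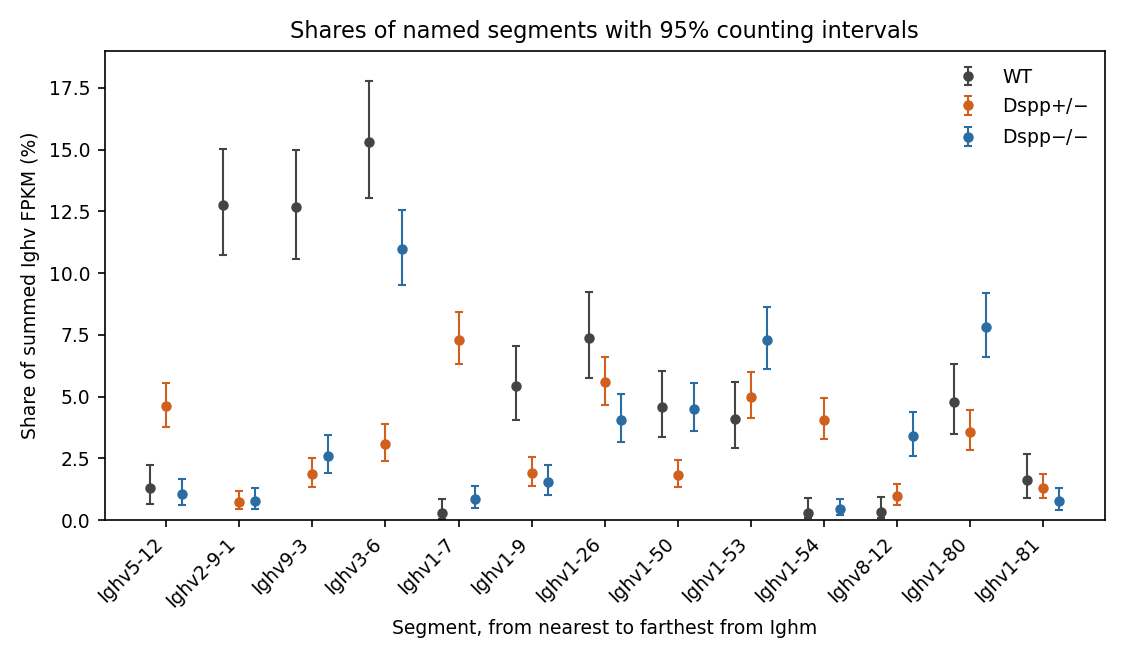
Share of the summed Ighv FPKM (%, vertical axis) of the 13 named segments, ordered from nearest to farthest from Ighm (horizontal axis), with 1 point per library and bars for the 95% counting interval. Ighv2-9-1 and Ighv9-3 are high in WT alone, Ighv1-7 and Ighv1-54 in Dspp+/- alone, and Ighv1-26 overlaps between WT and Dspp+/-.

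Positions are those of the deposited table, whose build is not named beyond an entry hg38, a human build, in the submitters' processing notes. The GRCm38 coordinates of all 103 segments are 36380 bases higher, on the minus strand of the same chromosome. Ordered by their distance from Ighm, the segments were divided into a proximal part of 35 (156 to 897 kb), a middle part of 34 (900 to 1697 kb) and a distal part of 34 (1723 to 2577 kb). The proximal and the middle part each held 8 families. The distal part held only Ighv1 and Ighv8.

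**Figure D3:**
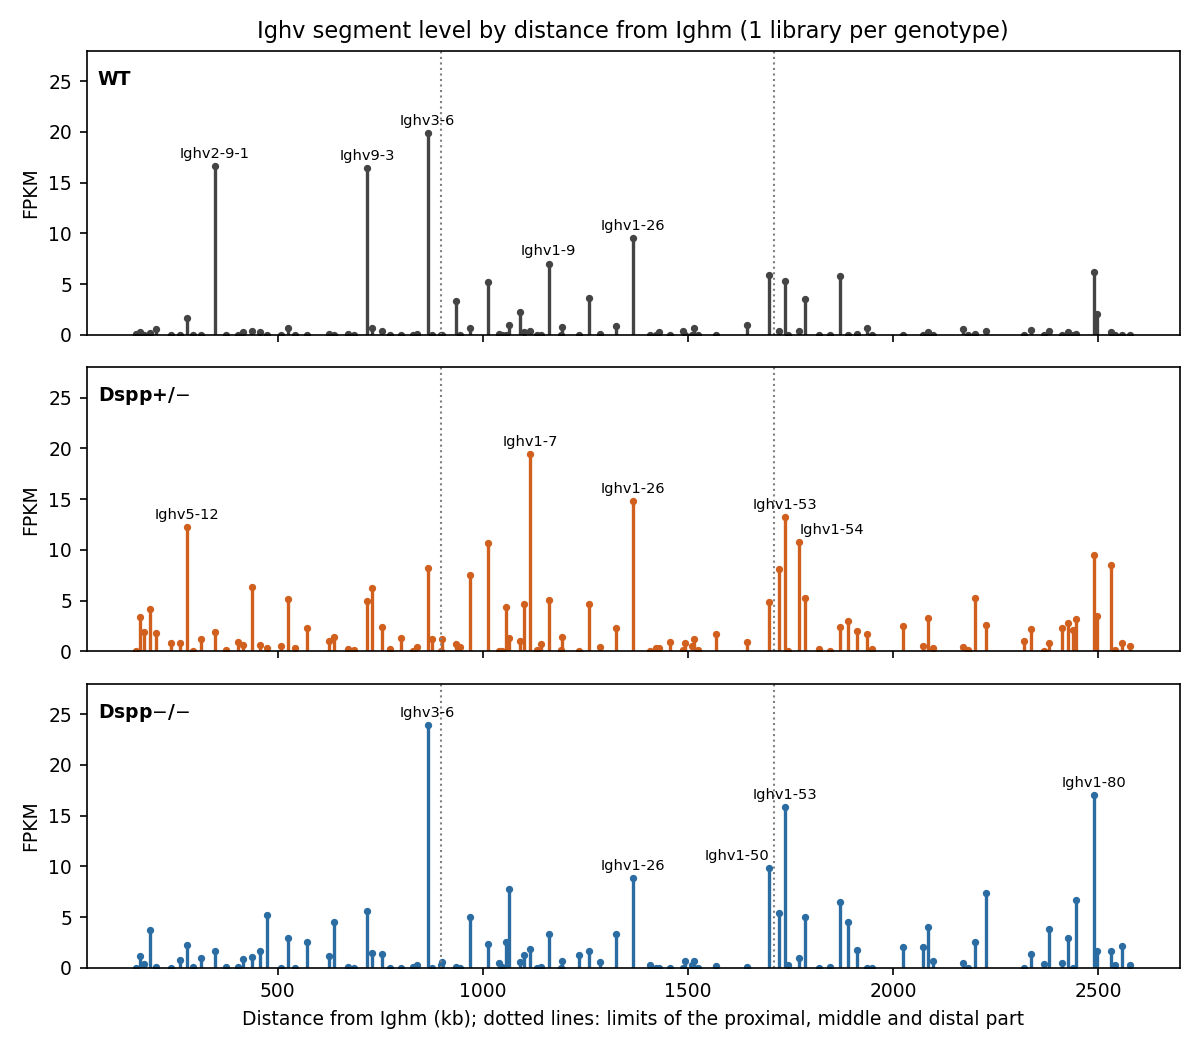
FPKM of each Ighv segment (vertical axis) against its distance from Ighm in kb (horizontal axis), in 1 panel per library, with dotted lines at the limits of the proximal, middle and distal part and labels on the 5 highest segments of each library. In WT the 3 highest stems are all proximal, and in Dspp-/- the distal part holds Ighv1-53 and Ighv1-80.

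Distal segments took a larger share of the Ighv RNA in both mutant libraries. The distal share was 21.3% in WT (18.7 to 24.0), 37.4% in Dspp+/- (35.4 to 39.4) and 45.1% in Dspp-/- (42.8 to 47.5). The proximal share was 45.2% in WT (42.0 to 48.5), 27.6% in Dspp+/- (25.8 to 29.4) and 29.8% in Dspp-/- (27.6 to 32.0). The middle share was 33.5%, 35.0% and 25.1%. As levels, the distal sum was 27.7 FPKM in WT against 99.5 in Dspp+/- and 98.2 in Dspp-/-, or 3.60-fold (3.08 to 4.21) and 3.55-fold (3.04 to 4.16) that of WT. The proximal sum was 58.9, 73.4 and 64.7 FPKM, or 1.25-fold (1.10 to 1.41) and 1.10-fold (0.965 to 1.25).

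This difference along the locus rested in large part on the 3 leading WT segments, all of which are proximal. Without them the proximal share turned round, to 7.66% in WT (5.62 to 10.1), 23.2% in Dspp+/- (21.5 to 25.03) and 18.0% in Dspp-/- (16.1 to 19.99), so that WT was the lowest instead of the highest. The middle share became 56.5% in WT (52.3 to 60.6), 37.1% in Dspp+/- (35.1 to 39.2) and 29.3% in Dspp-/- (27.0 to 31.7), with WT now above Dspp+/-. Also without them, the distal share was 35.9% in WT (31.9 to 40.0), 39.7% in Dspp+/- (37.6 to 41.7) and 52.7% in Dspp-/- (50.2 to 55.3), so that the intervals of WT and Dspp+/- overlapped while Dspp-/- remained above both. The other 32 proximal segments summed to 5.91 FPKM in WT compared with 58.2 in Dspp+/- and 33.5 in Dspp-/-, from 44, 517 and 281 fragments. Relative to WT they were 9.85-fold higher in Dspp+/- (7.23 to 13.7) and 5.66-fold higher in Dspp-/- (4.11 to 7.97), against 3.60-fold and 3.55-fold for the distal part. As the 3 segments were set aside for being high in WT, these proximal folds are a description, and leaving such segments out raises a ratio to WT by itself. Between the mutant libraries, the distal sums were alike (ratio 1.01, 0.919 to 1.12), and the middle sum was higher in Dspp+/- (93.2 against 54.6 FPKM, 1.71-fold, 1.52 to 1.92).

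The families did not all follow the parts of the locus. Ighv1, with 54 listed segments, held 41.8% of the Ighv FPKM in WT (38.7 to 45.03), 58.7% in Dspp+/- (56.6 to 60.7) and 57.6% in Dspp-/- (55.2 to 59.9). Ighv2, Ighv3 and Ighv9 were each carried in WT by 1 segment, as 1 of 7, 1 of 6 and 1 of 4 members was in use there. Ighv2 held 13.3% in WT against 4.12% in Dspp+/- and 4.24% in Dspp-/-, and Ighv9 held 12.8%, 2.45% and 2.65%. Ighv3 was low in Dspp+/- only, with 15.4%, 3.94% and 11.4%, and its summed level in Dspp-/- was 1.24 times that of WT (0.993 to 1.55). Ighv5, a family of the proximal part, had its largest share in Dspp+/-, with 2.31% in WT (1.45 to 3.48), 9.76% in Dspp+/- (8.59 to 11.0) and 2.85% in Dspp-/- (2.13 to 3.72). In Dspp+/- 8 of the 10 Ighv5 segments were in use, against 3 in WT and 5 in Dspp-/-. Ighv14 was at the limit of detection in WT, at 0.422 FPKM over 4 segments from 3 fragments, against 6.57 FPKM in Dspp+/- and 8.47 in Dspp-/-. Ighv8 had its largest share in Dspp-/-, at 7.10% (5.94 to 8.41), against 5.62% in WT (4.24 to 7.29) and 2.36% in Dspp+/- (1.77 to 3.07).

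**Figure D4:**
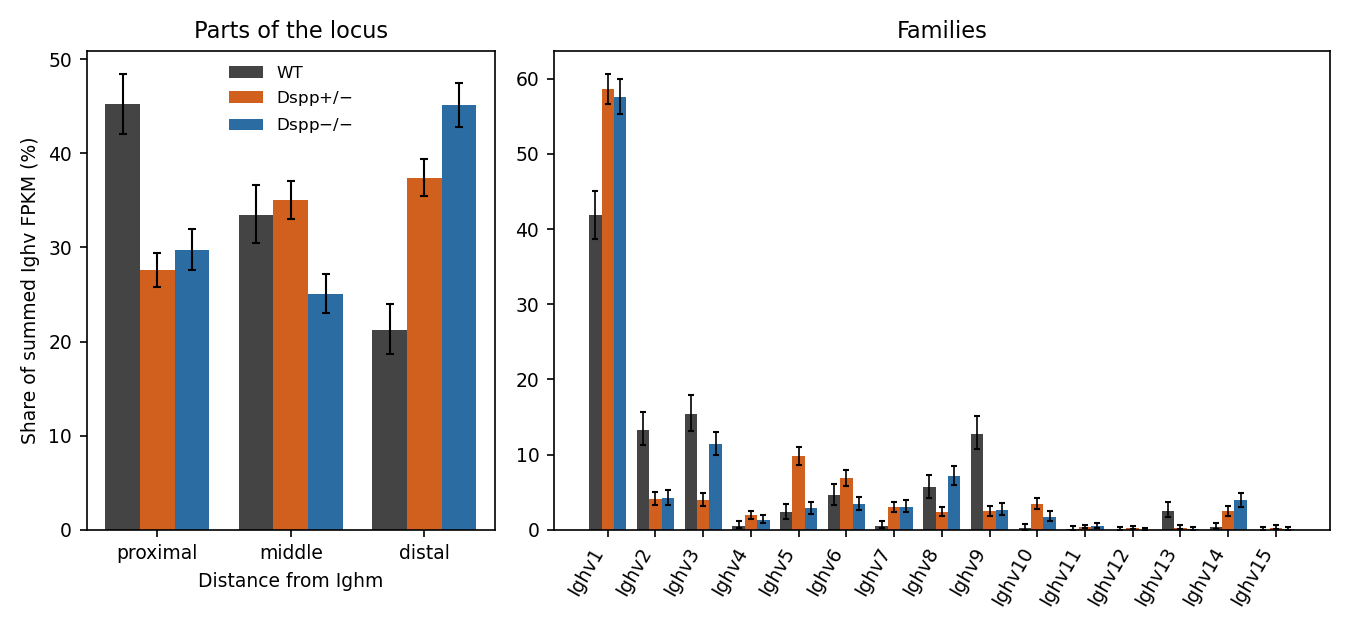
Share of the summed Ighv FPKM (%, vertical axes, both from 0) in the proximal, middle and distal part of the locus (left) and in each of the 15 families (right), with 1 bar per library and 95% counting intervals. The distal bars run from 21.3% in WT to 45.1% in Dspp-/-, and Ighv1 is the tallest family in every library.

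In all, 84 segments were in use in at least 1 library, 31 in every library and 19 in none. Nearly all segments of WT were in use in Dspp+/- too, with 35 of its 36 segments shared (97.2% of the WT set and 43.8% of the Dspp+/- set), and 31 in Dspp-/- (86.1% of the WT set and 50% of the Dspp-/- set). The segment in use in WT and in no other library was Ighv1-38, a pseudogene at the limit with 3 fragments in WT, named here after its value was seen. Dspp+/- had 17 segments in use that neither other library had, and Dspp-/- had 3. Dspp+/- also had the most Ighv fragments, 2312 against 949 in WT and 1757 in Dspp-/-, so segments pass the limit more easily there. Some of these segments lay at the limit, such as Ighv1-33 and Ighv1-34 with 3 fragments in Dspp+/- and Ighv1-73 with 3 in Dspp-/-. Ighv1-34 had 2 fragments in WT. A further 15 segments were in use in both mutant libraries with no fragment in WT. The share of all genes that pass the limit in some libraries only was not computed, so these counts are a description. Among the 15 segments, and chosen after their values were seen, Ighv10-1 had 37 fragments in Dspp+/- and 20 in Dspp-/-, and Ighv1-58 had 25 and 35. Against the limit of 3 fragments in WT, Ighv10-1 in Dspp+/- was at least 10.6-fold higher and in Dspp-/- at least 6.06-fold higher, and the counting intervals reach lower (3.35 to 53.6 and 1.80 to 31.9). Ighv1-26, Ighv1-53, Ighv1-80 and Ighv3-6 were among the 10 highest of every library. Over the 103 segments, which share library, depth and in part sequence, the rank correlation of FPKM was 0.63 between WT and Dspp+/-, 0.56 between WT and Dspp-/- and 0.69 between the mutant libraries.

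Pseudogenes served as an internal measure of signal where no functional heavy chain is made. The 11 listed pseudogenes together had 3 fragments in WT compared with 15 in Dspp+/- and 16 in Dspp-/-, which was 0.326%, 0.700% and 0.962% of the Ighv FPKM. The highest pseudogene had 0.425 FPKM in WT against 0.515 in Dspp+/- and 0.628 in Dspp-/-, well under the leading V genes. Of the 185 Ighv genes annotated in GENCODE M21, the 82 that are not rows of the table were not analysed here, and the table has no row that is 0 in all libraries.

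Segment by segment, both mutant libraries had more members above WT than below it. On the log2(FPKM + 1) scale, which understates the change of low segments, 35 of all 103 segments were at least 2-fold higher in Dspp+/- than in WT, against 2.71% of all 26970 genes, and 5 were at least 2-fold lower, against 1.56%. In Dspp-/- 27 were higher, against 2.25% of all genes, and 4 were lower, against 0.842%. Between the mutant libraries, 19 segments were at least 2-fold higher in Dspp+/- (0.63% of all genes) and 9 were lower (0.638%). With a minimum mean of 1 FPKM over the libraries, 45 segments remained. A segment that passed this minimum only through the library where it was high had to differ, so the following counts and medians are a description. Of these 45, 26 were higher in Dspp+/- than in WT (4.88% of the 13026 genes that passed) and 5 lower (2.86%). In Dspp-/- 24 were higher (4.05%) and 4 lower (1.37%), and 10 were higher (0.798%) and 7 lower (0.852%) in Dspp+/- than in Dspp-/-. The median log2 ratio to WT of these 45 was 1.26 in Dspp+/- and 1.07 in Dspp-/-, with 0.06 and 0.01 for all genes that passed. Over all 103 segments, without the minimum, it was 0.568 in Dspp+/- and 0.329 in Dspp-/-, with 0.016 and 0 for all genes.

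Fewer members were at least 2-fold lower than WT than were higher. They made up 4.85% of the 103 segments in Dspp+/- and 3.88% in Dspp-/-. Of all genes, 1.56% and 0.842% were lower. Those at least 2-fold lower in Dspp+/- were Ighv2-9-1, Ighv3-6, Ighv8-8, Ighv9-3 and Ighv13-2, and those lower in Dspp-/- were Ighv1-5, Ighv2-9-1, Ighv9-3 and Ighv13-2. Ighv13-2, the lone listed member of its family, had 3.30 FPKM in WT compared with 0.708 in Dspp+/- and 0.125 in Dspp-/-, from 24, 6 and 1 fragments. Ighv8-8 had 5.80, 2.37 and 6.53 FPKM, so it was low in Dspp+/- only, as Ighv3-6 was. Ighv1-5 had 2.25, 1.07 and 0.569 FPKM.

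All 7 constant genes listed for the same locus were also higher in both mutant libraries, but not in the same proportions. In each mutant library, 5 of the 7 were at least 2-fold higher than in WT. Across the 13026 genes that passed the minimum, 4.88% were in Dspp+/- and 4.05% in Dspp-/-. Ighm, the constant gene of IgM, had 193 FPKM in WT against 292 in Dspp+/- and 332 in Dspp-/-. Igha, of the IgA class of mucosal surfaces, had 8.70, 70.8 and 21.8 FPKM. Ighg2b, of the IgG class, had 3.32, 53.6 and 16.7 FPKM. Against WT, Igha was 8.14-fold higher in Dspp+/- (7.40 to 8.97) and 2.502-fold higher in Dspp-/- (2.25 to 2.79), and Ighg2b was 16.1-fold (13.9 to 18.9) and 5.03-fold higher (4.29 to 5.93). Ighm made up 89.6% of the summed FPKM of 7 constant genes in WT, but 61.1% in Dspp+/- and 80.9% in Dspp-/-. Dspp+/- had the most switched constant RNA and the most V segments in use, but also the most Ighv fragments. A link between these was not tested. The ratio of summed Ighv to summed constant FPKM differed little, at 0.604, 0.557 and 0.530. The 100 listed Igkv segments, the V segments of the kappa light chain, summed to 182, 426 and 298 FPKM, which was 2.33-fold (2.19 to 2.48) and 1.63-fold (1.53 to 1.75) that of WT, near the folds of Ighv.

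B cell markers moved with the Ighv level. The 10 B cell markers, all above 0 in every library, summed to 22.8 FPKM in WT compared with 75.6 in Dspp+/- and 56.1 in Dspp-/-. Of the 9 with a mean of at least 1 FPKM, 6 were at least 2-fold higher in Dspp+/- than in WT and 5 in Dspp-/-. Among all genes that passed this minimum, 4.88% and 4.05% were. None of the 9 was at least 2-fold lower, against 2.86% of those genes in Dspp+/- and 1.37% in Dspp-/-. Cd79a, part of the B cell receptor, had 5.49, 21.6 and 12.9 FPKM. The 8 plasma cell markers summed to 84.2, 86.3 and 86.9 FPKM, but Xbp1 and Sdc1, which many other cells also make, held most of that sum. The others did not move one way. Jchain, which joins IgM and IgA into polymers, had 15.4, 28.4 and 26.03 FPKM, and Irf4, a regulator of plasma cell formation, had 1.20, 4.08 and 3.85 FPKM. Prdm1, another such regulator, was lower in both mutant libraries, with 3.47, 2.18 and 2.51 FPKM. Derl3, Mzb1 and Tnfrsf17 rested on few fragments, with 17, 42 and 13 fragments for Derl3, 2, 13 and 9 for Mzb1, and 3, 5 and 7 for Tnfrsf17. The 10 T cell markers summed to 5.27, 10.1 and 7.71 FPKM, with Cd8b1 at 0 in WT. How far the number of B cells accounts for the number of segments in use was not tested.

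The libraries differed in other ways that run with genotype. The 9 markers of condylar bone, cartilage and osteoclasts were present in every library and summed to 12843 FPKM in WT against 3507 in Dspp+/- and 6636 in Dspp-/-, all 9 being below WT in both. Of these, 8 were at least 2-fold lower than WT in Dspp+/- and 5 in Dspp-/-. Across the 13026 genes that passed the same minimum, 2.86% were lower in Dspp+/- and 1.37% in Dspp-/-. Mitochondrial genes took 9.60% of the fragments in WT, against 16.6% in Dspp+/- and 16.2% in Dspp-/-. Xist, the RNA of the inactive X chromosome in female cells, had 0.00551 FPKM in WT compared with 28.5 in Dspp+/- and 26.5 in Dspp-/-, from 2, 12084 and 10563 fragments. The labels give no sex, and whatever lies behind the Xist values cannot be told apart from genotype. The part of these differences in the Ighv results was not tested.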

How the data were processed

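Poly(A)-selected RNA of 3 libraries, 1 per genotype, was sequenced in pairs of 150 bases with a kit that does not mark strand. The submitters' processing notes list FastQC 0.11.5, HISAT2 2.1.0, StringTie 1.3.3b and DESeq 1.28.0, and the build hg38, although the samples are mouse. The authors deposited 1 table whose unit is not named; its values were read as FPKM, since FPKM times exon length in GENCODE M21 came out as whole multiples of a library's constant (tolerance 0.05) for 98.6% of genes under 100 fragments in each library and for all 103 members. From this constant, depth and fragments were recovered. How fragments shared by several segments, or carrying junction bases and somatic mutations, were counted is not given in the sources used here, and losses would lower a segment's value.

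The authors' FPKM were compared, with fragments used for intervals and the limit of 3. Intervals on shares of FPKM were computed on the fragments of the segments out of all Ighv fragments. Their limits were then mapped to the FPKM scale. Calls used log2(FPKM + 1), a mean of at least 1 FPKM and 2-fold. Segments were named if among the 5 highest of a library, the nearest or farthest in use in all libraries, or among the 3 largest rises or falls in share against WT; constant genes and marker genes came from written lists. Members and lists were chosen with earlier results of these data known. The Kruskal-Wallis test of the study's methods cannot be used with 1 library per genotype. Scripts were tested on simulated data. Alternatives varied the fragment minimum, depth, scaling, pseudocount, filter, fold, division of the locus and members kept. Expression of Dspp was not analysed here and gave no check on the labels. Computation used matplotlib 3.10.9, scipy 1.17.1, pandas 2.3.3, edlib 1.3.9.post1 and numpy 2.4.6 under Python 3.11.15.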

Additional observations from a re-analysis of the deposited data

How the results depend on the processing

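No paired analysis was possible because each genotype has 1 library, and for the same reason no replicate could be left out. The order WT, Dspp+/-, Dspp-/- of the distal share held under all 8 settings. It was 25.2%, 41.7% and 51.2% without the top segment of each library, 35.9%, 39.7% and 52.7% without Ighv3-6, Ighv2-9-1 and Ighv9-3, 38.6%, 50.3% and 57.8% with the locus divided in 2 equal parts, and 75.3%, 81.5% and 90.1% as Ighv1 and Ighv8 against Ighv2 and Ighv5. Leaving out those 3 WT segments was chosen after seeing the data. It also gave top 1, top 5 and top 10 shares of 12.4%, 44.8% and 72.2% in WT, a top 10 share of 45.8% in Dspp+/-, top 1 and top 5 shares of 9.14% and 31.9% in Dspp-/-, effective numbers of 23.5 in WT and 47.9 in Dspp+/-, and summed levels of 3.25 for Dspp+/- over WT, 2.41 for Dspp-/- over WT and 1.35 for Dspp+/- over Dspp-/-. Scaling without mitochondrial genes raised the log2 ratio to WT of every gene by 0.12 in Dspp+/- and 0.11 in Dspp-/-, and gave a summed level of 2.22 for Dspp+/- over WT. With at least 10 fragments, or at least 1 FPKM, 16 segments were in use in WT. The counts past 2-fold depended on the settings, as few segments lie far above the pseudocount. Except with no filter, the share of all genes past these settings was not computed, so the following counts describe the segments alone. For Dspp+/- over WT, 8 were higher and 2 lower with a pseudocount of 5, 3 and 3 when the mean had to reach 5 FPKM, and 13 and 1 at 4-fold. For Dspp-/- over WT, 5 were higher and 2 lower with a pseudocount of 5, 3 and 2 when the mean had to reach 5 FPKM, and 9 and 1 at 4-fold, while 7 were lower with a pseudocount of 0.1 and also at 1.5-fold. For Dspp+/- over Dspp-/-, 5 were higher and 2 lower with a pseudocount of 5, 3 and 1 when the mean had to reach 5 FPKM, 16 and 11 at 1.5-fold, and 3 and 1 at 4-fold, while 19 were higher with no filter. The proximal share turned round without those 3 WT segments, to 7.66%, 23.2% and 18.0%, and the middle share became 56.5%, 37.1% and 29.3%, which put WT above Dspp+/-. Without the top segment of each library, also chosen later for these shares, the proximal share was 35.5%, 27.3% and 21.3%, with WT still highest, and the middle share was 39.3%, 30.9% and 27.5%, again with WT above Dspp+/-. No setting reversed the order of the distal share or the side of 1 of a summed level. At 949 Ighv fragments, a segment with no fragment in WT may still hold up to 0.316% of use, taken as 3 fragments.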

Other observations

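Of 16 genes for V(D)J recombination and locus structure, 15 had a mean of at least 1 FPKM, 2 of them were at least 2-fold higher than WT in both mutant libraries, where 4.88% of all genes tested were higher in Dspp+/- and 4.05% in Dspp-/-, and none was lower. Those 2 were Pax5, the factor that commits cells to the B lineage, with 1.38 FPKM in WT against 4.64 in Dspp+/- and 4.57 in Dspp-/-, and Ikzf1, a lymphoid transcription factor, with 2.49, 13.6 and 13.0 FPKM. Rag1, a subunit of the recombinase, had 1.82, 3.74 and 3.49 FPKM. Yy1 and Ctcf, which shape the loops of the locus, had 17.4, 21.2 and 19.1 FPKM and 14.0, 16.6 and 18.8 FPKM. The 7 markers of pro-B and pre-B cells summed to 8.45, 14.9 and 20.1 FPKM, highest in Dspp-/-, with Vpreb2 at 0 in WT and in Dspp-/-. Vpreb3, which associates with immunoglobulin chains in B cell precursors, held the largest part of that sum, with 3.57, 8.97 and 10.2 FPKM, and Rag2, the partner of Rag1, had 0.346, 0.569 and 0.722 FPKM. Vpreb1, a part of the surrogate light chain, had 1.40, 0.565 and 1.46 FPKM. Igll1, its other part, had 0.502 FPKM in WT compared with 0.176 in Dspp+/- and 2.12 in Dspp-/-, and Dntt, which adds bases at the joining site, had 0.819, 0.776 and 2.12 FPKM.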
